A study of Homo sapiens with 16 samples.

Results

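A list of 10 genes that encode proteins secreted into the blood by the liver was followed in human pancreatic progenitor cells during disruption of the actin cytoskeleton. The rule names the genes and uses no measured value. The list holds the carrier proteins AFP, ALB and TTR, the apolipoproteins APOA1, APOA2, APOB and APOE, the protease inhibitors SERPINA1 and A2M, and the fibrinogen chain FGB. They are 10 of the 35810 genes to which the deposited transcripts could be joined, and all 10 were among the 16705 genes tested.

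The cells came from SA121, a human embryonic stem cell line, in its NGN3-GFP derivative, and were taken at day 19 of differentiation into pancreatic progenitors. All 16 libraries share this line and genotype. Latrunculin B, which binds actin monomers and so depolymerises the filaments, was given at 0.5 µM, and cells were harvested after 3 h (n = 3), 6 h (n = 3), 12 h (n = 2) or 24 h (n = 3). The controls were taken at 0 h (n = 3) and after 24 h in the vehicle DMSO (n = 2). The labels give DMSO for the 0 h control too, although the series text places that harvest before treatment, and no vehicle library at 3, 6 or 12 h was used here. The 3 early drug groups were therefore set against the 0 h control, so that drug and elapsed time in culture cannot be told apart in them. Whether replicates are separate cultures was not given, so p-values measure only the spread between these samples.

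Hepatocytes make most plasma proteins, and they arise from foregut endoderm that also gives rise to the ventral pancreas. The yolk sac and fetal liver make AFP before ALB takes over as the main carrier. Apolipoproteins coat lipid particles: APOB forms the frame of very-low-density and low-density lipoproteins, APOA1 and APOA2 those of high-density lipoproteins, and APOE is a ligand for lipoprotein receptors. Several of these genes are also used outside the liver. TTR is made in pancreatic islets and the choroid plexus, APOB and APOA1 in the intestine, APOE in macrophages and astrocytes, and A2M in fibroblasts.

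The stretch just upstream of the start site is shown for the 2 genes whose levels parted most clearly from the rest of the list with a known window (APOA2 and FGB) and for the neighbouring pair AFP and ALB, which differed widely in level. Each is the 150 bases before a RefSeq start site on GRCh38.p14, 5′ to 3′ on the gene's own strand. Capitals mark GTTAAT or its reverse complement, the core of the sequence that HNF1 factors bind, in AFP, ALB and FGB, and the reverse complement of TGTTTAC, a FOXA sequence, in APOA2.
APOA2, chr1:161223629-161223778, minus strand: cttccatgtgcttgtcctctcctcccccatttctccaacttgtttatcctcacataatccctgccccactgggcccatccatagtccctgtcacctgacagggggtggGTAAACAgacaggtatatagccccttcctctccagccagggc
FGB, chr4:154562861-154563010, plus strand: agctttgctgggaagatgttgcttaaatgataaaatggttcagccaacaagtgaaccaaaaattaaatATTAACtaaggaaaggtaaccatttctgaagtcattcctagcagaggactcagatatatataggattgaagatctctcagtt
AFP, chr4:73436071-73436220, plus strand: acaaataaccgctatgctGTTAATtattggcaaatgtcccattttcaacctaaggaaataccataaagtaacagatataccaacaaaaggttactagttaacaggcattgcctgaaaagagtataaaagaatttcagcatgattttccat
ALB, chr4:73404137-73404286, plus strand: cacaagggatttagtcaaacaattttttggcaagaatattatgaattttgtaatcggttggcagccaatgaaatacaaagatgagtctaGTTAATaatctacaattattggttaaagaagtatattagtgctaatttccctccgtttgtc

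Windows were found for 6 of the 10 genes, namely AFP, ALB, APOA2, APOE, SERPINA1 and FGB, some with more than 1 start site. APOA1, APOB, TTR and A2M have no entry. Searched on both strands, GTTAAT was present in at least 1 window of 4 of the 6 genes (AFP, ALB, SERPINA1 and FGB). Counted by window, it was in 5 of the 10 windows of these genes and in 3.52% of the 35116 windows of this length. The 5 include overlapping windows of FGB that hold the same site. TGTTTAC was found in APOA2 and in 1.73% of all windows. The TATA box letters TATAAA were found in AFP and in 6.71% of all windows. The HNF4 sequence CAAAGTCCA (0.222% of all windows) and the C/EBP sequence TTGCGCAA (0.0911%) were in none of the members' windows. The marked sites do not overlap with each other. These matches describe the letters only and say nothing of binding in these cells.

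Libraries held 23609727 to 33515398 estimated reads, and CPM below are a gene's reads scaled to a common library total, with edgeR's TMM factors. The 2 libraries of latrunculin B 12 h stood apart from each other, with a correlation of log2 CPM over genes of 0.967 against 0.980 to 0.986 in every other pair of replicates. Summed markers of pancreatic progenitors (9 genes) lay between 1346 and 2496 TPM in all libraries. GP2 alone gave 882 to 2002 TPM of this sum. PDX1 lay at 110 to 173 TPM, SOX9 at 86.3 to 136 TPM and NKX6-1 at 39.6 to 73.2 TPM. Of 28 hepatocyte enzymes and receptors listed, 16 passed the filter on low counts and 9 averaged under 0.1 TPM.

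The 10 genes covered a wide range of levels before treatment. By TPM, in which reads are divided by transcript length, FGB was highest in the 0 h control at 832 TPM (SD 47.5, n = 3) and ranked 157 among 16659 genes. APOE followed at 575 TPM (SD 24.9), APOA1 at 488 TPM (SD 48.7), TTR at 408 TPM (SD 51.3), SERPINA1 at 256 TPM (SD 25.6) and A2M at 199.7 TPM (SD 44.4). AFP stood at 27.2 TPM (SD 2.09), APOA2 at 20.3 TPM (SD 3.27), APOB at 2.58 TPM (SD 0.228) and ALB at 0.718 TPM (SD 0.218), which ranked 14233. In this order the ranges of neighbours did not overlap except for APOA1 with TTR and SERPINA1 with A2M. AFP, the fetal carrier, was thus well above ALB. Together the 10 genes made up 0.258% to 0.306% of all TPM at 0 h, with FGB alone giving 28.7% to 30.4% of their sum.

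**Figure D1:**
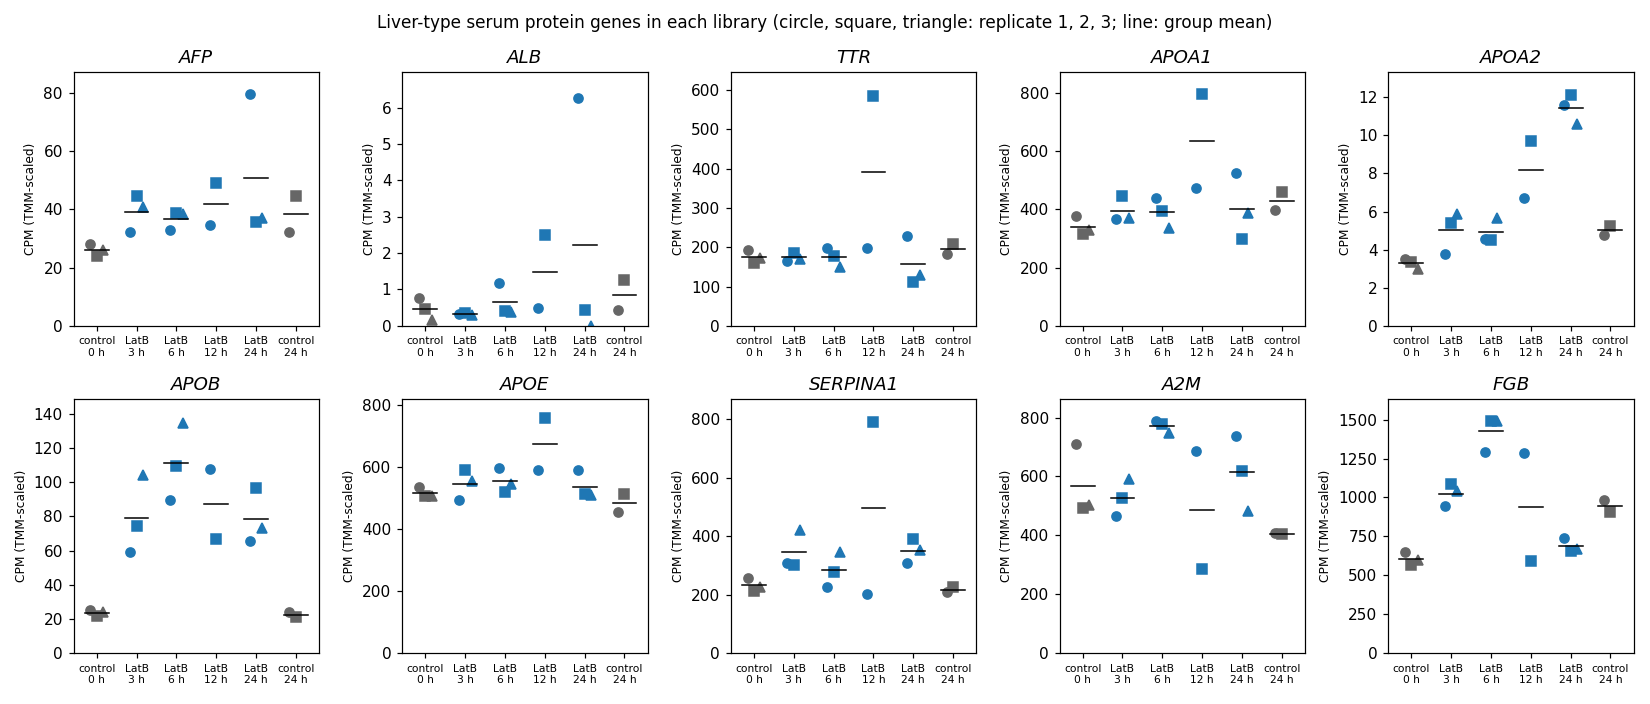
TMM-scaled CPM of each of the 10 genes (vertical axis, from 0) in each of the 16 libraries, by group (horizontal axis); symbols give the replicate, blue is latrunculin B, grey is control and the line is the group mean. APOB sits at 59.0 CPM or more in every latrunculin B library and at 25.1 or less in every control, and the square of the 12 h group stands far above its partner in TTR, APOA1 and SERPINA1.

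At 3 h of latrunculin B, 3 of the 10 genes were higher than in the 0 h control and none was lower. These were APOB, APOA2 and FGB, and the same 3 genes were higher at 6 h. Across all genes, 31.6% were called at 3 h (16.8% higher and 14.7% lower) and 43.3% at 6 h (22.9% higher and 20.4% lower), so the share of the list called in either direction was not above the background. At 12 h, 7 were higher, against 35.8% of all genes called (19.1% higher and 16.8% lower). At 24 h, now against the vehicle of the same age, 2 of the 10 (APOA2 and APOB) were higher, against 40.8% of all genes called (21.9% higher and 18.8% lower). A call here is an adjusted p under 0.05 in edgeR's quasi-likelihood test over all genes. The median log2 fold change of the 10 genes was 0.39 at 3 h, 0.46 at 6 h, 0.999 at 12 h and 0.50 at 24 h, where that of all genes was 0.00205, -0.0104, 0.0114 and 0.00812. The 24 h vehicle against the 0 h control gave no call among the 10 genes by edgeR or DESeq2 when all groups were fitted together, with 0.251% of all genes called by edgeR (0.0299% higher and 0.221% lower). Among them 2, APOA2 and FGB, had an unadjusted p under 0.05 in edgeR's fit, and FGB was called when the controls alone were fitted (edgeR adjusted p = 0.0176). In bulk RNA, a change in how many cells of a kind are present and a change in RNA per cell cannot be told apart.

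**Figure D2:**
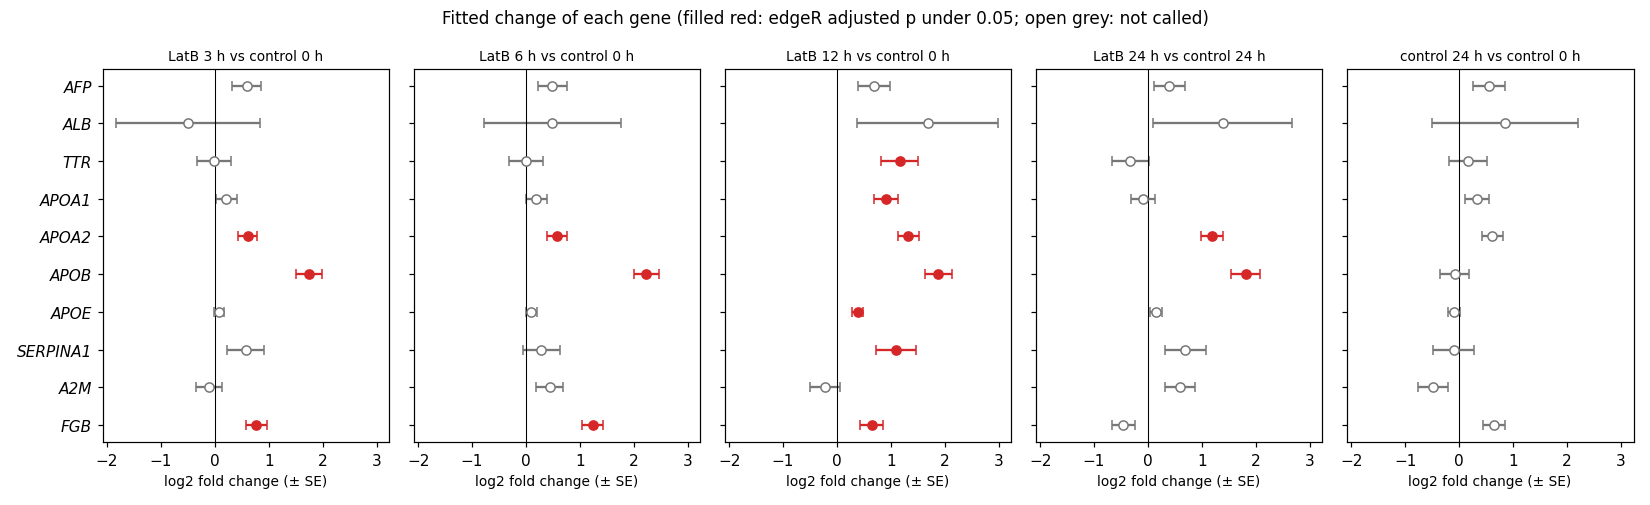
Fitted log2 fold change (horizontal axis, points with SE bars) of each gene (vertical axis) in 5 comparisons, filled red where edgeR's adjusted p was under 0.05. APOB is filled in all 4 drug comparisons and lies at -0.08 between the controls, while APOA2 and FGB lie at 0.61 and 0.65 between the controls without being called.

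Among the apolipoproteins, APOB had the strongest response. The 0 h control libraries held 25.1, 21.4 and 24.3 CPM of APOB, from 631, 640 and 573 reads. After 3 h the values were 59.0, 74.4 and 104 CPM, and after 6 h they were 89.6, 109 and 135 CPM. Every treated library lay above every control library, with the 6 h group highest on average. At 12 h APOB stood at 108 and 66.7 CPM and at 24 h at 65.5, 96.4 and 73.1 CPM. The 24 h vehicle held 23.9 and 20.9 CPM and so overlapped with the 0 h control. Fitted log2 changes of APOB were 1.75 (SE 0.24, edgeR adjusted p = 9.8e-05) at 3 h, 2.24 (SE 0.24, adjusted p = 8.5e-06) at 6 h, 1.88 (SE 0.26, adjusted p = 9.8e-05) at 12 h and 1.81 (SE 0.27, edgeR adjusted p = 0.000198) at 24 h. APOB was called in each of these comparisons under every alternative tried, the 24 h vehicle as reference and the omission of any library included. Its lower level at 24 h than at 6 h, a log2 difference of -0.50 (SE 0.22), was not called (edgeR adjusted p = 0.0920), but was without latrunculin B 24 h replicate 2 (APOB adjusted p = 0.0482).

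APOA2, a small protein of high-density lipoproteins, was counted from 70 to 395 reads per library. It measured 3.51, 3.35 and 2.97 CPM in the 0 h control. It then measured 3.77, 5.38 and 5.90 CPM at 3 h, 4.57, 4.50 and 5.64 CPM at 6 h and 6.69 and 9.71 CPM at 12 h. At 24 h it reached 11.6, 12.1 and 10.6 CPM, above all other libraries. The 24 h vehicle held 4.78 and 5.26 CPM, inside the range of the 3 h and 6 h drug groups. The early log2 fold changes were 0.61 (SE 0.18, edgeR adjusted p = 0.0186) at 3 h and 0.58 (SE 0.18, edgeR adjusted p = 0.0190) at 6 h. Between the vehicle and the 0 h control APOA2 differed by nearly as much, 0.61 (SE 0.20), which was not called at an edgeR adjusted p of 0.287. With the 24 h vehicle as the reference the APOA2 value was 0.00 at 3 h and -0.04 at 6 h. The 3 h call also ended without control 0 h replicate 2 (edgeR adjusted p = 0.0532), control 0 h replicate 3 (0.0716), latrunculin B 3 h replicate 2 (0.0722) or latrunculin B 3 h replicate 3 (0.102), and the 6 h call of APOA2 without control 0 h replicate 2 (0.0514), control 0 h replicate 3 (0.0699) or latrunculin B 6 h replicate 3 (0.0976). Both early APOA2 calls ended too with an offset for transcript length (edgeR adjusted p = 0.176 at 3 h and 0.157 at 6 h) and by limma on TPM (adjusted p = 0.321 and 0.307 with a pseudocount of 1, and 0.315 and 0.297 with a pseudocount of 0.1).

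The later rise of APOA2 was called with either control as the reference. It was 1.33 (SE 0.19, edgeR adjusted p = 0.000179) at 12 h, which became 0.71 against the 24 h vehicle (edgeR adjusted p = 0.0195), and 1.19 (SE 0.20, edgeR adjusted p = 0.000391) at 24 h against the vehicle of the same age. From 6 h to 24 h of drug, APOA2 rose by 1.22 on the log2 scale (SE 0.17, edgeR adjusted p = 0.000120). In that comparison 37.9% of all genes were called (19.0% higher and 18.9% lower), and among the 10 genes only APOA2 was higher and only FGB was lower. The 24 h effect minus the 3 h effect was 0.58 for APOA2 (SE 0.26), short of a call at an edgeR adjusted p of 0.120.

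APOA1 and APOE, the abundant apolipoproteins, moved little outside the 12 h group. APOA1 held 317 to 377 CPM at 0 h, 368 to 447 at 3 h, 337 to 440 at 6 h, 299 to 524 at 24 h of drug and 397 to 458 CPM in the vehicle. At 12 h its libraries held 475 and 798 CPM. The 12 h difference in APOA1 was 0.90 (SE 0.22, edgeR adjusted p = 0.00660). APOE held 506 to 534 CPM at 0 h and 492 to 596 CPM at 3 h and 6 h. Its log2 fold changes were 0.08 (approximate 95% interval -0.11 to 0.27) at 3 h and 0.10 (-0.09 to 0.29) at 6 h, which leaves room only for small differences. At 12 h APOE stood at 589 and 756 CPM and was called at 0.38 (SE 0.11, edgeR adjusted p = 0.0136). At 24 h APOE held 507 to 590 CPM against 455 and 511 CPM in the vehicle, a log2 difference of 0.15 (SE 0.11, edgeR adjusted p = 0.291).

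FGB encodes the beta chain of fibrinogen, the clotting protein that thrombin turns into fibrin. The 0 h control held 650, 563 and 596 CPM of FGB. At 3 h the libraries held 946, 1086 and 1044 CPM and at 6 h 1290, 1493 and 1490 CPM. At 12 h they held 1288 and 593 CPM, and at 24 h 736, 659 and 671 CPM. The vehicle at 24 h held 985 and 905 CPM. FGB was thus highest at 6 h, and at 24 h all 3 treated libraries lay below both vehicle libraries. The rise was 0.77 (SE 0.19, edgeR adjusted p = 0.00785) at 3 h and 1.24 (SE 0.19, edgeR adjusted p = 0.000193) at 6 h. At 24 h the difference was -0.46 (SE 0.21) with an edgeR adjusted p of 0.103. With only the latrunculin B 24 h and vehicle libraries in the fit, the 24 h difference in FGB was -0.47 and was called (edgeR adjusted p = 0.00396).

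The controls differ in time in culture and may differ in exposure to DMSO, so the part of either in FGB was not tested. FGB was higher in the 24 h vehicle libraries than in the 0 h control libraries, but this was not called when all groups were fitted together. The vehicle at 24 h was 0.65 above the 0 h control (SE 0.21, edgeR adjusted p = 0.301), and with the vehicle as the reference the 3 h value of FGB was 0.12 and no longer called (edgeR adjusted p = 0.720). At 6 h FGB was 0.59 above the vehicle and remained called (edgeR adjusted p = 0.0422). From 6 h to 24 h of drug, FGB fell by 1.05 on the log2 scale (SE 0.19, edgeR adjusted p = 0.000856). The effect at 24 h minus the effect at 3 h was -1.22 (SE 0.29, edgeR adjusted p = 0.00637), and FGB was the only one of the 10 genes called in this test of a difference, for which 27.9% of all genes were called (14.6% higher and 13.4% lower).

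The 2 other fibrinogen chain genes lie beside FGB on chromosome 4. On the GRCh38 annotation FGB spans chr4:154563011-154572807 on the plus strand, FGA chr4:154583126-154590742 and FGG chr4:154604134-154612967 on the minus strand. Both were called higher at 3 h, FGA at 0.85 (SE 0.21, edgeR adjusted p = 0.00679) and FGG at 0.87 (SE 0.16, edgeR adjusted p = 0.000873). Both stayed higher at 6 h, at 0.80 for FGA and 0.97 for FGG. At 24 h FGA was lower than in the vehicle, at -0.79 (SE 0.23, edgeR adjusted p = 0.0140). FGG held 32.04 to 47.8 CPM at 24 h against 32.8 CPM in both vehicle libraries. The 3 genes differed in level, with means of 832 TPM for FGB, 144 TPM for FGA and 31.4 TPM for FGG in the 0 h control.

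**Figure D3:**
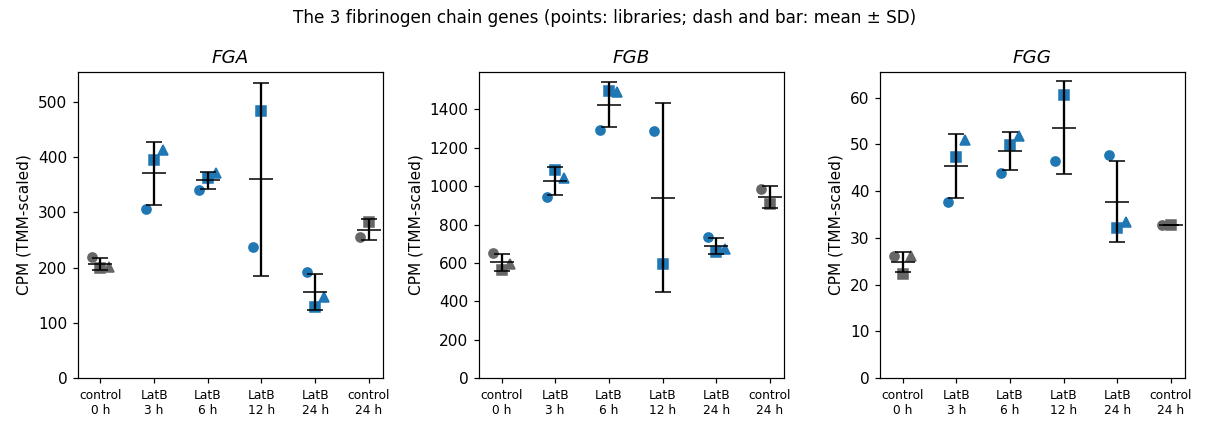
TMM-scaled CPM (vertical axis, from 0) of the 3 fibrinogen chain genes in each library, by group (horizontal axis), with the group mean and SD. FGB climbs to 1290 to 1493 CPM at 6 h and lies at 659 to 736 CPM at 24 h of drug, below the vehicle at 905 and 985 CPM.

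Of the carriers, AFP was higher than the 0 h control in every library of the 5 later groups. In the fit of all libraries it was called only at 24 h of drug with the 0 h control as the reference. It held 28.2, 24.0 and 26.0 CPM at 0 h, 32.1, 44.6 and 40.9 CPM at 3 h and 32.9, 38.6 and 38.2 CPM at 6 h. The later groups held 34.6 and 48.9 CPM at 12 h, 79.5, 35.6 and 36.9 CPM at 24 h of drug, and 32.3 and 44.6 CPM in the vehicle. The drug groups overlapped with the vehicle, and 1 library, latrunculin B 24 h replicate 1, was far above its partners. The AFP log2 fold changes were 0.59 (SE 0.27, edgeR adjusted p = 0.115) at 3 h, 0.49 (SE 0.27, adjusted p = 0.163) at 6 h, 0.68 (SE 0.29, edgeR adjusted p = 0.0877) at 12 h and 0.40 (SE 0.29, edgeR adjusted p = 0.306) at 24 h. When the fit held just the groups compared, AFP was called at 3 h (edgeR adjusted p = 0.00645), at 6 h (0.00129) and at 12 h (0.0412). Against the 0 h control in place of the vehicle, AFP at 24 h of drug was higher by 0.96 (edgeR adjusted p = 0.0108).

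ALB was close to the limit of detection. Its libraries held 19, 13.9 and 3.75 estimated reads at 0 h, 9.21 to 10 at 3 h, 9 to 31 at 6 h and 13.3 and 40 in the vehicle. At 12 h ALB had 11.4 and 73.9 reads. At 24 h of drug it had 184, 14 and 0 reads, the last of which allows up to 3 reads or 0.0998 CPM by counting error alone. Only latrunculin B 12 h replicate 2 and latrunculin B 24 h replicate 1 exceeded 40 reads. The SE of its log2 fold change was 1.27 to 1.34 in the 4 drug comparisons, with wide differences between replicate libraries. No change in ALB was called in these comparisons, and only a large one could have been. The library with the most AFP also had the most ALB in 5 of the 6 groups, all but 6 h, although at 3 h the ALB libraries were less than 1 read apart.

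ALB and AFP sit side by side on chromosome 4, at chr4:73397114-73421482 and chr4:73431138-73456174, with AFM next to them. GC, the vitamin D binding protein of the same gene family, is on that chromosome too. GC was the neighbour that moved most, at 1.10 (SE 0.19, edgeR adjusted p = 0.000403) at 6 h, 1.81 (SE 0.20, adjusted p = 2.2e-05) at 12 h and 2.05 (SE 0.22, edgeR adjusted p = 1.35e-05) at 24 h. GC rose from 12.9 CPM at 0 h and 16.4 CPM in the vehicle to 67.8 CPM at 24 h of drug (SD 18.4, n = 3). AFM averaged 0.342 CPM at 0 h and 1.05 CPM at 24 h of drug.

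TTR, which carries thyroid hormone and retinol binding protein, was called only at 12 h. It held 160 to 194 CPM at 0 h, 165 to 187 at 3 h, 151 to 199 at 6 h, 112 to 229 at 24 h of drug and 183 and 209 CPM in the vehicle. The log2 fold change of TTR was -0.01 (SE 0.32) at 3 h and 0.01 (SE 0.32) at 6 h. At 12 h the TTR libraries held 199 and 586 CPM, so the first lay near the other groups and the second far above them. The fitted difference of 1.16 (SE 0.35, edgeR adjusted p = 0.0183) fell to 0.18 (edgeR adjusted p = 0.682) without latrunculin B 12 h replicate 2.

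Of the protease inhibitors, SERPINA1, which restrains neutrophil elastase, held 256, 214 and 226 CPM at 0 h and 309, 302 and 422 CPM at 3 h. The 3 h libraries lay above the controls, but the difference of 0.57 (SE 0.34) was not called (edgeR adjusted p = 0.230). SERPINA1 held 227, 277 and 347 CPM at 6 h, and at 24 h 307, 389 and 354 CPM against 209 and 224 CPM in the vehicle. The 24 h groups did not overlap either, with a SERPINA1 difference of 0.69 (SE 0.39, edgeR adjusted p = 0.171). When just the groups compared were fitted, SERPINA1 was called at 3 h (edgeR adjusted p = 0.0104) and at 24 h (0.00403). At 12 h the SERPINA1 libraries held 201 and 790 CPM, below and above all controls. The 12 h call for SERPINA1 (1.10, SE 0.37, edgeR adjusted p = 0.0344) turned to -0.20 without latrunculin B 12 h replicate 2.

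A2M, which traps proteases of many kinds, was called in the fit of all libraries only at 6 h with the vehicle as the reference. It held 709, 494 and 504 CPM at 0 h, 465 to 591 CPM at 3 h, 749 to 789 CPM at 6 h and 688 and 287 CPM at 12 h. At 24 h of drug it held 737, 619 and 484 CPM, all above the vehicle at 408 and 403 CPM. Both vehicle libraries also lay below all 0 h libraries, a log2 difference of -0.49 (SE 0.28, edgeR adjusted p = 0.730). A2M differed by 0.44 on the log2 scale (SE 0.25, edgeR adjusted p = 0.174) at 6 h and by 0.60 (SE 0.28, edgeR adjusted p = 0.108) at 24 h. With the vehicle as the reference at 6 h it was 0.93 and called (edgeR adjusted p = 0.0183). Against the 0 h control in place of the vehicle, A2M at 24 h of drug was higher by only 0.11 and was not called. When just the groups compared were fitted, A2M was called higher at 6 h (edgeR adjusted p = 0.0163) and at 24 h (0.0335).

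The 7 calls at 12 h rested in part on 1 library. Relative to replicate 1, latrunculin B 12 h replicate 2 had 5.20 times the CPM of ALB, 3.92 times that of SERPINA1, 2.95 times that of TTR and 1.68 times that of APOA1. It had 0.618 times the CPM of APOB, 0.460 times that of FGB and 0.418 times that of A2M. Without it 3 genes (APOA2, APOB and FGB) were called, and without replicate 1 there were 7, with A2M lower and FGB no longer called. APOA1 fell to 0.48 (edgeR adjusted p = 0.138) and APOE to 0.19 (edgeR adjusted p = 0.214) without replicate 2. The calls of TTR and FGB also ended without control 0 h replicate 2 (edgeR adjusted p = 0.0614 and 0.0934) or control 0 h replicate 3 (0.0507 and 0.0715), and that of SERPINA1 without any 1 of the 3 controls (0.0556 to 0.0970). With the 24 h vehicle as the reference 4 genes were called at 12 h, namely APOA2, APOB, APOE and SERPINA1. FGB was at 1.10 without replicate 2 and at -0.02 without replicate 1.

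Several sums of markers of other cells, but not all, differed widely between the 2 libraries of 12 h. Closer in replicates 1 and 2 were the endocrine markers (187 and 188 TPM), the blood and macrophage markers (3.48 and 3.82 TPM) and the pluripotent cell markers (113 and 127 TPM). Summed over 10 mesenchyme markers such as COL3A1, TWIST1 and LUM, latrunculin B 12 h replicate 2 held 470 TPM against 85.6 TPM in replicate 1 and 63.7 to 133 TPM in all other groups. The 6 endothelial markers summed to 13.9 TPM against 3.71 TPM, and 8 acinar markers to 119 TPM against 44.8 TPM. Of the acinar sum in replicate 2, PRSS1 alone gave 95.1 TPM. The 11 intestine markers summed to 72.7 TPM against 138 TPM, and the progenitor markers, mostly GP2 by TPM, to 1346 TPM against 1774 TPM. Their part in the values of TTR, SERPINA1, APOA1 and FGB was not tested. In latrunculin B 24 h replicate 1, the library high in AFP and ALB, 12 endocrine markers summed to 141 TPM against 498 and 439 TPM in its partners. The mesenchyme markers summed to 113 TPM there, against 63.7 and 63.8 TPM. Of the 12 endocrine genes, SST had the highest median over all libraries (115 TPM), then CHGA (30.5 TPM).

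**Figure D4:**
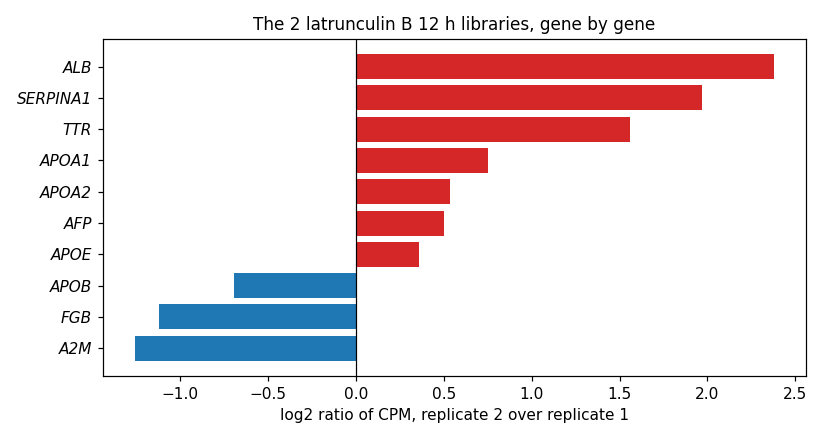
Log2 ratio of TMM-scaled CPM of replicate 2 over replicate 1 at 12 h of latrunculin B (horizontal axis) for each gene (vertical axis), red above 0 and blue below. ALB, SERPINA1 and TTR are higher in replicate 2 and A2M, FGB and APOB are lower, so the 10 genes do not shift together between the 2 libraries.

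In the wider set of plasma protein genes, the share called was near or below that of all genes. Of 48 others listed, 32 were tested, and 6 rose and none fell at 3 h, 8 rose and 1 fell at 6 h, and 10 rose and 2 fell at 12 h. At 24 h 4 rose and 8 fell. The shares called were 18.8%, 28.1%, 37.5% and 37.5%, beside 31.6%, 43.3%, 35.8% and 40.8% of all genes. At 24 h AMBP, the precursor of alpha-1-microglobulin, was higher by 0.81 (SE 0.06, edgeR adjusted p = 1.16e-06) and F2, prothrombin, by 0.89 (SE 0.30, edgeR adjusted p = 0.0299). HPX, which binds free haem, was lower at -1.86 (SE 0.32, edgeR adjusted p = 0.000479). The list's median was 0.19 at 3 h, 0.31 at 6 h, 0.29 at 12 h and 0.13 at 24 h.

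Genes that load or take up lipoproteins were called in both directions. Of 19 tested, 2 rose and 2 fell at 3 h, 4 rose and 5 fell at 6 h, 6 rose and 4 fell at 12 h, and 4 rose and 2 fell at 24 h. The shares called, 21.1%, 47.4%, 52.6% and 31.6%, lay on both sides of the 31.6%, 43.3%, 35.8% and 40.8% of all genes. MTTP, which loads lipid onto nascent APOB, was higher at 3 h (0.78, SE 0.25, edgeR adjusted p = 0.0292), at 6 h (0.72, SE 0.25, edgeR adjusted p = 0.0340) and at 24 h (1.02, SE 0.29, edgeR adjusted p = 0.0122). VLDLR, a receptor that binds APOE-bearing particles, was lower at 3 h (-0.90, edgeR adjusted p = 0.0125) and at 24 h (-1.004, edgeR adjusted p = 0.00943). LCAT, which esterifies cholesterol on high-density lipoproteins, was lower at 3 h, 6 h and 12 h, with -0.93 (SE 0.16, edgeR adjusted p = 0.000341) at 6 h.

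Transcription factors known from liver were called in both directions. Of 24 tested, 8 rose and 5 fell at 3 h, 9 rose and 4 fell at 6 h, 7 rose and 8 fell at 12 h, and 3 rose and 12 fell at 24 h, or 54.2%, 54.2%, 62.5% and 62.5% of the list beside 31.6%, 43.3%, 35.8% and 40.8% of all genes. FOXA3, a forkhead factor of endoderm and liver, was higher at each time, by 1.10 at 3 h, 1.82 (SE 0.10, edgeR adjusted p = 3.18e-08) at 6 h, 1.57 at 12 h and 0.94 at 24 h. NR0B2, a nuclear receptor that represses bile acid synthesis genes, was higher by 1.65 (SE 0.16, edgeR adjusted p = 7.04e-06) at 3 h. CEBPD was lower at each time, from -1.70 at 3 h to -2.06 (SE 0.26, edgeR adjusted p = 5.67e-05) at 12 h. ONECUT1, a factor shared by liver and pancreas, was lower by 1.09 on the log2 scale at 24 h, with a fitted value of -1.09 (SE 0.09, edgeR adjusted p = 2.58e-06). Of 16 hepatocyte enzymes and receptors tested, 1 rose at 3 h and none fell, 3 rose and 1 fell at 6 h, 2 rose and 1 fell at 12 h, and 1 rose and 1 fell at 24 h. These are 6.25%, 25%, 18.75% and 12.5%, all below the share of all genes. CYP2E1, a drug-metabolising enzyme, was higher at 3 h (0.69, edgeR adjusted p = 0.0426) and lower at 24 h (-1.18, edgeR adjusted p = 0.00411).

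Among the 9 members with a mean of at least 1 CPM, which leaves out ALB, APOB (2.29 on the log2 CPM scale) and APOA2 (1.78) had the widest range of group means. Over the 16 libraries, which share drug, time and line, the genes whose log2 CPM correlated best with that of APOB were XBP1 (Pearson r = 0.977), IRX3 (0.976), TXLNG (0.970), HYCC1 (0.966) and ZBTB2 (0.964). For APOA2 they were COMMD9 (0.944), AMBP (0.944), ELAPOR1 (0.942), RGS5 (0.940) and NFE2L3 (0.936). These are descriptions over 16 libraries in 6 groups.

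The reads of most of these genes came from few annotated transcripts. A single transcript, SERPINA1-220, took 97.3% of the estimated reads of SERPINA1, and A2M-201 took 99.5% of those of A2M. For TTR, 2 transcripts with different starts shared the reads, TTR-201 with 52.4% and TTR-206 with 45.1%. The TTR-201 share was 43.97% (SD 2.35, n = 3) at 0 h, 53.7% (SD 6.70, n = 3) at 3 h and 50.6% (SD 6.41, n = 3) at 6 h. The 6 h libraries overlapped with those at 0 h. The share was 54.9% (SD 3.18, n = 2) at 12 h, 59.6% (SD 2.16, n = 3) at 24 h of drug and 51.5% (SD 1.84, n = 2) in the vehicle. The shares at 24 h of drug all lay above those of the vehicle, although the reads shared by overlapping transcripts were divided by the quantifier and not seen directly. FGB-201 gave 70.3% of FGB reads, between 63.6% and 73.1% in each library.

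Summed over the 10 genes, the level was 2809 TPM (SD 241, n = 3) at 0 h, 3316 TPM (SD 226, n = 3) at 3 h and 3825 TPM (SD 48.6, n = 3) at 6 h. It was 3750 and 5420 TPM in the 12 h libraries, 3085 TPM (SD 482, n = 3) at 24 h of drug and 3347 TPM (SD 76.0, n = 2) in the vehicle. FGB gave 43.4% to 48.3% of this sum at 6 h, and 27.2% to 32.3% at 24 h of drug against 35.8% and 40.9% in the vehicle.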

How the data were processed

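Poly(A) RNA libraries were quantified per transcript by the authors, with Salmon 1.3.0 on hg38 per the submitters' processing notes. The deposited tables hold estimated counts and TPM per transcript, as the authors made them. The study's methods instead describe alignment and gene counts, for which no table was used here. The authors' table of fold changes and p-values, with 16 columns of per-sample values, was not used.

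Transcripts were joined to genes by identifier through GENCODE release 44 (165533 of 177456 matched; 2.92% to 3.17% of reads were not), estimated counts were summed per gene and rounded, and all 16 libraries were fitted by group in edgeR 4.0.16 (filterByExpr, TMM factors 0.947 to 1.05, quasi-likelihood test, two-sided, Benjamini-Hochberg over 16705 genes, threshold 0.05). Functions were tested on simulated data. Alternatives used DESeq2 1.42.0 and limma 3.58.1 on log2(TPM + 1) or log2(TPM + 0.1), which understates changes of low genes. Other genes were named from fixed lists: up to 4 called genes with the largest change per list and comparison, with a mean of at least 1 CPM, and neighbours of members. The genes most like a member were the 5 with the highest correlation for the 2 widest-ranging members with a mean of at least 1 CPM, which leaves out ALB. The 10 genes and the lists were chosen with earlier results of these data known. Upstream windows came from RefSeq (GRCh38.p14). Floors cover counting error only. Approximate intervals came from edgeR's SE, which includes the spread between libraries.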

Additional observations from a re-analysis of the deposited data

Results flagged for a closer look

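The fitted difference of FGB, the fibrinogen beta chain, between latrunculin B and its control was not the same at 3 h and 24 h. The log2 difference of the 24 h effect (against the vehicle at 24 h) minus the 3 h effect (against the control at 0 h) was -1.22 (SE 0.285, edgeR adjusted p = 0.00637). All 3 libraries at 3 h lay above their controls and all 3 at 24 h lay below theirs. The 2 effects use different controls, and FGB differed by 0.65 between those controls, called only when the controls alone were fitted. With the vehicle as the reference the 3 h value of FGB was 0.12 and was not called (edgeR adjusted p = 0.720). Drug and time in culture cannot be told apart in the 3 h effect.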

How the results depend on the processing

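The 7 comparisons were refitted under other choices of reference, scaling, filter, transcript set, tool and library. APOB kept its calls at all 4 drug times under every alternative. Beyond the ranges below, 111 of 125 alternative counts of called genes stayed within 1.5 times their value, and 1114 of 1243 alternative values of single genes kept direction and side of the threshold. Unless stated, the values printed here are log2 fold changes of genes that were not called in either fit, and the cause of each shift was not tested.

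With the control of the other time as the reference, 1 gene was called at 3 h (APOB) and 4 at 12 h, in place of 3 and 7. Of called values, APOA2 went to -0.0032 at 3 h and -0.0355 at 6 h and FGB to -0.0067 at 12 h. Uncalled values went to -0.1122 (APOA1) and 0.3791 (A2M) at 3 h, to -0.0723 (AFP), -0.366 (ALB), -0.1538 (TTR) and -0.1332 (APOA1) at 6 h, to 0.2631 (A2M) at 12 h, and to 0.2414 (APOA1) and 0.1919 (FGB) at 24 h. With only the groups under comparison fitted, 5 genes were called at 3 h, 5 at 6 h, 4 at 12 h, 5 at 24 h (4 higher, 1 lower) and 1 (FGB) between the controls.

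By limma on TPM, with a pseudocount of 1 or of 0.1, 3 genes were called at 12 h and 2 (FGB and APOA2) in the 24 h minus 3 h effect. ALB went to 0.1295 and 0.0837 at 3 h, to -0.1315 and -1.0515 from 6 h to 24 h and to -0.0135 and -0.742 in the 24 h minus 3 h effect, and to -0.6582 at 24 h with 0.1. APOE went to -0.093 and -0.0932 at 3 h and -0.0502 and -0.0503 at 6 h, and TTR to -0.1291 and -0.1294 at 6 h. TTR at 6 h, at 0.01 in the fit reported, also went to -0.0838 without scaling, -0.0048 without the low-count filter, -0.0156 with a mean of at least 50 counts, -0.1233 with transcripts of the same version alone and -0.0299 with a transcript length offset. That offset put ALB at 0.0347 and APOE at -0.0115 at 3 h. Keeping transcripts of the same version alone drops A2M-201 (99.5% of A2M reads), FGB-201 (70.3% of FGB reads), TTR-201 (52.4% of TTR reads) and AFP-202 (40.3% of AFP reads). These genes were then counted from their other transcripts. A2M went to -0.0531 at 6 h and 0.0461 from 6 h to 24 h, and TTR to -0.1308 between the controls. Without scaling, APOE from 6 h to 24 h went to 0.0889.

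The scaling moved the balance of calls over all genes more than it moved the list. Genes called higher were 53.3% of all calls at 3 h, 52.8% at 6 h, 50.1% from 6 h to 24 h and 52.1% in the 24 h minus 3 h effect. Without scaling they were 36.1%, 37.7%, 73.8% and 69.0%, and by limma on TPM + 1 they were 38.0%, 36.4%, 66.7% and 62.0%. Without scaling the median of all genes was -0.102 at 6 h and 0.137 from 6 h to 24 h. The members called were the same with and without scaling in all 7 comparisons.

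The replicate numbers gave little sign of pairing: same-numbered libraries of 2 groups had correlated deviations above 0.1 in 2 of 36 cases, from -0.241 to 0.116. In groups of 2 libraries the deviations mirror each other, so these cases are not independent. The check cannot tell whether same-numbered libraries share a differentiation batch. With a replicate block, 3, 3, 5 and 2 genes were called at 3, 6, 12 and 24 h, TTR went to -0.0014 at 6 h and APOB to 0.0088 between the controls.

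Leaving out 1 library at a time gave 3 to 7 called genes at 12 h. Values that crossed 0 ranged from -0.8807 to 0.0024 (ALB), -0.089 to 0.0708 (TTR) and -0.2193 to 0.0815 (A2M) at 3 h, from -0.1085 to 0.0882 (TTR) and -0.261 to 0.9962 (ALB) at 6 h, and at 12 h from -0.0248 to 1.095 (FGB, called), -0.204 to 1.7656 (SERPINA1, called) and -0.9878 to 0.2733 (A2M). At 24 h they ranged from -0.3202 to 0.0899 (APOA1), -0.0851 to 0.6476 (AFP) and -1.9323 to 2.3252 (ALB), and between the controls from -0.0864 to 1.4116 (ALB) and -0.1765 to 0.0153 (APOB). From 6 h to 24 h they ranged from -0.1203 to 0.0104 (APOE), -0.1874 to 0.2229 (APOA1), -0.0132 to 0.6689 (AFP), -1.5667 to 2.4806 (ALB) and -0.5487 to 0.0193 (TTR). In the 24 h minus 3 h effect they ranged from -0.0108 to 0.1573 (APOE), -0.6728 to 0.0597 (AFP), -0.1123 to 0.3203 (APOB) and -1.4289 to 2.8288 (ALB). A group left with 1 library is assumed to vary like the others.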
